A study of Mus musculus with 48 samples.

Results

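LIF, its receptor and the JAK-STAT components that carry cytokine signals were followed in single cells of the mouse inner cell mass (ICM). The set held 9 of the 49671 genes in the count table. It was chosen by name, and its symbols were mapped to Ensembl identifiers with the GRCm38 annotation. The 9 genes were the ligand Lif, the receptor chains Lifr, Il6st, Il6ra and Il2rg, the kinases Jak1 and Jak2, the transcription factor Stat3 and the feedback inhibitor Socs3. Each was counted in at least 6 of the 48 cells.

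The cells came from ICMs at E3.75, a blastocyst stage when epiblast and primitive endoderm begin to separate, and RNA was sequenced by Smart-seq2, which reads full-length transcripts of one cell at a time. Embryos carried the Pdgfra H2B-GFP/+ reporter, a nuclear GFP knocked into the Pdgfra locus that marks primitive endoderm, so 1 Pdgfra allele carries the cassette. They were labelled wild type, came from natural mating of reporter mice with F1 hybrids (C57BL/6JxCBA/J). No drug or cytokine treatment is given in the labels. By the study's methods 3 embryos with mosaic GFP were taken and their ICMs isolated by immunosurgery, a complement lysis of the outer cells. The labels do not tell the embryos apart, so the 48 cells were treated as 1 sample, no p-value was computed, and SDs give the spread between cells. The cells were divided into 25 prospective epiblast (pEPI) and 23 prospective primitive endoderm (pPrE) cells, as read from the branches of the study's dendrogram. That tree was built from the expression of the same cells, so a difference between branches is a description and not an independent test.

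LIF binds LIFR, which pairs with the shared chain gp130, encoded by Il6st. The paired receptor activates JAK kinases, which phosphorylate STAT3, and STAT3 in turn switches on Socs3, an inhibitor that closes the loop. The same route, driven by LIF, keeps mouse embryonic stem cells self-renewing, and in the embryo it is known for sustaining the ICM when implantation is delayed. The common gamma chain encoded by Il2rg belongs to another receptor family, that of IL-2, IL-4, IL-7, IL-9, IL-15 and IL-21, works with JAK3, and is best known from lymphocytes.

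STAT dimers bind palindromes of the form TTCNNNGAA. This pattern reads the same on both strands, so one search covers both. In RefSeq promoter windows of 300 bases (250 before and 50 after the start site, GRCm38.p6) it was present in 8.30% of 32851 windows. Of the 9 genes, which had 10 windows, only Socs3 held it, once and 154 bases before the RefSeq start site. The Socs3 window and both Lifr windows lie inside the gene spans given below, so the outer ends of these spans were not searched. Of the 70 other pathway genes with a window, which had 94 windows, 10 held it in at least 1. These are counts of genes, whereas the 8.30% is a share of windows, so they are not like for like. The Socs3 window is shown because Socs3 was the most highly expressed gene of the set. Cish, an inhibitor induced by STAT5, is shown because it held 2 copies (0.457% of windows held 2 or more) and was picked after its values were seen. The Il2rg window is shown because Il2rg had the largest ratio between branches, and it held no copy. Capitals mark the palindrome. A match is a description of the letters and not evidence of a bound site.
Socs3, chr11:117969317-117969616, minus strand: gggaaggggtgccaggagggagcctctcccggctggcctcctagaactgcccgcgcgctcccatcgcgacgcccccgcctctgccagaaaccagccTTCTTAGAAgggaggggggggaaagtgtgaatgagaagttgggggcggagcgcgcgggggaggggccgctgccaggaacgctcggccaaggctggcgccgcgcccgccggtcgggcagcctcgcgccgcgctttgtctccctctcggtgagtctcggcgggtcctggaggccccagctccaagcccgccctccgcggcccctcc
Cish, chr9:107296409-107296708, plus strand: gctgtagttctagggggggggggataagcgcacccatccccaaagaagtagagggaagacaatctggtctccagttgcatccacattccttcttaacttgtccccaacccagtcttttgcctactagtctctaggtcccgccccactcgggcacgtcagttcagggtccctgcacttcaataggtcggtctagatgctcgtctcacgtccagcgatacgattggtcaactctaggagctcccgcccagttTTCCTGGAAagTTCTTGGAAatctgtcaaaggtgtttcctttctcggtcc
Il2rg, chrX:101268206-101268505, minus strand: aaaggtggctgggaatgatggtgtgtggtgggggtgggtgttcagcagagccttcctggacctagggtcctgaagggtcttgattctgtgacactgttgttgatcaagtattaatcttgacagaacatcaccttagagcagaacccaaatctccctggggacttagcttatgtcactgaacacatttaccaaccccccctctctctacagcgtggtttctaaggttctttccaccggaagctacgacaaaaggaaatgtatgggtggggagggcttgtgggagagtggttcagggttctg

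Total counts per cell ranged from 1718970 to 7342785. Levels are given as FPKM, which divides counts by the cell's library size and the exon length of the gene, so that genes can be compared. Of the markers, 5 of 8 pEPI genes were at least 2-fold lower in pPrE and all 8 of the 11 pPrE genes with a mean of at least 1 FPKM were at least 2-fold higher. The summed pPrE markers were at 5.56 to 189 FPKM in pEPI and 107 to 410 FPKM in pPrE cells, so single cells of the branches overlapped. Trophectoderm markers summed to 3.29 to 166 FPKM in pEPI (median 29.7) and 12.3 to 107 FPKM in pPrE cells (median 39.5). Most of this sum came from Krt8 and Fgfr2, while Cdx2 was counted in 3 cells. Only 29 of the cells held counts of Uty, Kdm5d, Ddx3y and Eif2s3y, which lie on the Y chromosome (a sum of at least 100), and these cells sat in unbroken runs of wells (A1 to C2 and E1 to F3). The other 19 lay in wells C3 to D8 and F4 to F8, and since a Y chromosome is carried by all cells of an embryo or by none, the sets come from different embryos.

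Across all cells the set was ordered from Socs3 at 86.6 ± 42.03 FPKM (SD, n = 48 cells here and for the following) to Jak2 at 0.203 ± 0.709 FPKM. Stat3 followed Socs3 at 13.03 ± 7.15 FPKM. Lifr at 6.61 ± 6.14, Jak1 at 5.51 ± 4.60, Il2rg at 4.73 ± 9.10 and Il6st at 4.32 ± 3.37 FPKM came next. Il6ra reached 1.48 ± 1.88 FPKM and Lif 0.273 ± 0.998 FPKM. Only the step from Socs3 to Stat3 was larger than the SD of either gene, and all other neighbours in this order differed by less than the larger of their SDs. In each of the 48 cells Stat3 and Socs3 were both counted.

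**Figure D1:**
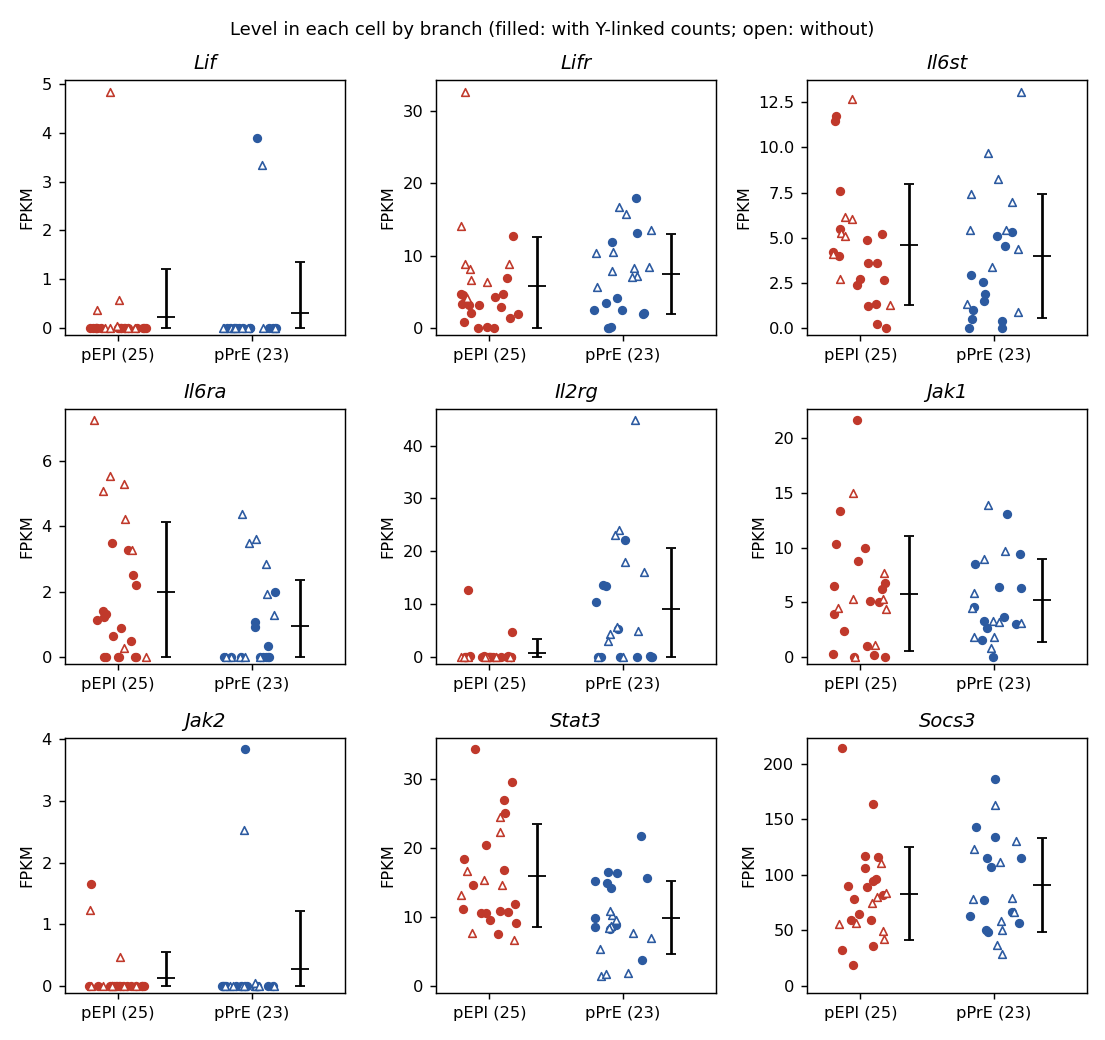
Level (FPKM, linear axis) of each gene in each of the 25 pEPI (red) and 23 pPrE (blue) cells. Filled circles are cells with and open triangles cells without Y-linked counts, and the black bars give the mean and SD over the cells, cut at 0. Il2rg is near 0 in 23 of 25 pEPI cells, while the ranges of Jak1 and Socs3 overlap widely between the branches.

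Il2rg was the 1 gene of the set at least 2-fold higher in pPrE, and Il6ra was the 1 gene at least 2-fold lower. Of the 10768 genes with a mean of at least 1 FPKM, 6.12% were at least 2-fold higher in pPrE and 8.86% at least 2-fold lower. The set had 7 genes above this level, whose median log2 ratio was -0.16, against 0.00 over all genes. Lif and Jak2 fell below it. With 1 gene of 7 past the limit in each direction, the set as a whole was no more than 1 gene from these shares.

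Beginning with the ligand, Lif (ENSMUSG00000034394, chr11:4257557-4272514) had counts in 4 of the 25 pEPI cells and in 2 of the 23 pPrE cells. In pEPI it was at 4.85 FPKM in cell C3, 0.579 in C4, 0.370 in D4 and 0.0459 in F4. In pPrE it was at 3.90 FPKM in cell A1 and 3.34 in D2. Lif was therefore seen in single cells of both branches, at a moderate level in C3, A1 and D2 only, among cells at or near 0. Cell C3 alone held 81.0% of the pEPI counts. The branch means were 0.234 ± 0.971 and 0.315 ± 1.05 FPKM, a difference far below the spread. Every one of the 6 cells also had counts of Lifr.

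Lifr (ENSMUSG00000054263, chr15:7090614-7197489) encodes the chain that recognises LIF. It was counted in 23 of 25 pEPI cells, from 0 through a median of 4.26 to 32.6 FPKM, and in 21 of 23 pPrE cells, from 0 through 7.12 to 17.9 FPKM. The highest cell was the pEPI cell C3, which was also the highest for Lif. The means of 5.86 ± 6.68 and 7.43 ± 5.53 FPKM gave a log2 ratio, pPrE to pEPI, of 0.34 (95% counting interval 0.30 to 0.39). This interval, as all other counting intervals here, covers counting error only. A pPrE cell was higher in 60.7% of pairs of cells, so the branches overlapped almost entirely. The direction turned between the sets of cells, with a log2 ratio of 0.58 within those with Y-linked counts and -0.15 within those without.

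Il6st (ENSMUSG00000021756, chr13:112464070-112510086), the gp130 chain shared by LIF, IL-6 and their relatives, was counted in 24 pEPI and 21 pPrE cells. Its level ran from 0 through a median of 4.09 to 12.7 FPKM in pEPI and from 0 through 3.37 to 13.1 FPKM in pPrE. The log2 ratio was -0.21 (-0.26 to -0.15), within the SD of 3.36 FPKM in pEPI and 3.43 FPKM in pPrE around means of 4.62 and 4.002 FPKM. Within the cells without Y-linked counts the ratio turned to 0.16, and within those with them it was -0.99.

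Both chains of the LIF receptor were counted in 41 of 48 cells, or 85.4% (exact binomial 95% interval 72.2 to 93.9%, which treats cells as independent draws). Of these, 22 were pEPI and 19 pPrE cells. Of the rest, 3 cells had counts of Lifr only and 4 of Il6st only, and no cell lacked both. Lifr, Il6st, Jak1 and Stat3 were counted together in 39 cells, 20 in pEPI and 19 in pPrE.

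Il6ra (ENSMUSG00000027947, chr3:89864059-89913196), which recognises IL-6 and signals through gp130, was counted in 18 of 25 pEPI cells (72.0%, interval 50.6 to 87.9%) and 10 of 23 pPrE cells (43.5%, 23.2 to 65.5%). In pEPI it ran from 0 through a median of 1.21 to 7.24 FPKM, and in pPrE from 0 through 0 to 4.38 FPKM. The means of 1.98 ± 2.14 and 0.949 ± 1.40 FPKM gave a log2 ratio of -1.06 (-1.18 to -0.94), a 2.08-fold lower level in pPrE. The highest cells were therefore pEPI cells, but the difference was smaller than the SD of either branch. The ratio was -1.60 within the cells with Y-linked counts and -1.28 within those without. Without the pEPI cell F8, which held 15.1% of the pEPI counts, it was -0.89. The ratio also missed 2-fold without the wells of letter B (-0.84), C (-0.94) or E (-0.97). All 28 cells with counts of Il6ra also had counts of Il6st. A further 71 counts lay on the antisense gene Gm42809, and the strand of the counting is not given in the sources used here.

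Il2rg (ENSMUSG00000031304, chrX:101264378-101268255), the common gamma chain, showed the widest separation. In pEPI 20 of 25 cells were at 0, and only B1 at 4.66 and E5 at 12.7 FPKM held more than 3 counts. In pPrE the level ran from 0 through a median of 4.93 to 44.8 FPKM, with 14 of 23 cells above 3 counts and the highest level in C5. High cells thus made up most of one branch and were rare in the other, yet 9 pPrE cells lay at the pEPI level.

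The means of 0.712 ± 2.66 and 9.09 ± 11.4 FPKM gave a 12.8-fold higher level in pPrE, a log2 ratio of 3.67 (3.44 to 3.92). Of the 10768 genes, 0.715% had a ratio as high or higher. The difference of the means stayed below the SD in pPrE. The pEPI total was 154 counts and the pPrE total 2502. Cell E5 held 69.5% of the pEPI counts, and leaving it out gave a log2 ratio of 5.42. The pPrE cell C5 held 27.4% of the pPrE counts, and leaving it out gave 3.39. When the cells were instead divided by the sign of the Nanog to Gata6 ratio, which moved 9 of 48 cells to the other side, the log2 ratio was 0.48.

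Within pPrE, the 14 cells above 3 counts of Il2rg and the 9 others had Gata4 at 51.4 ± 25.6 and 49.5 ± 29.5 FPKM. Gata6 was at 26.6 ± 10.1 and 18.5 ± 12.9 FPKM, Sox17 at 56.1 ± 31.5 and 39.9 ± 28.9 FPKM, and Nanog at 35.6 ± 49.7 and 51.6 ± 96.3 FPKM. Each of these differences was smaller than the SDs. Their Lifr was at 10.1 ± 5.28 and 3.35 ± 2.82 FPKM. Of the 14 cells 9 were without Y-linked counts, as were 11 of all 23 pPrE cells. Lifr was itself higher in the pPrE cells without Y-linked counts (means of 10.1 against 4.98 FPKM), so the 2 divisions overlap. Across the 48 cells the Spearman rho of Il2rg was 0.51 with Gata6, 0.51 with Sox17 and 0.45 with Gata4, and -0.46 with Nanog. Within pPrE it was 0.26, -0.01, -0.20 and 0.17. The correlations were thus smaller, or of the other sign, within pPrE. Within the 19 cells without Y-linked counts those with Gata6, Sox17 and Gata4 were 0.70, 0.60 and 0.62, and within the 29 others 0.31, 0.28 and 0.21. The cells 3 embryos, so these values are descriptions.

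**Figure D2:**
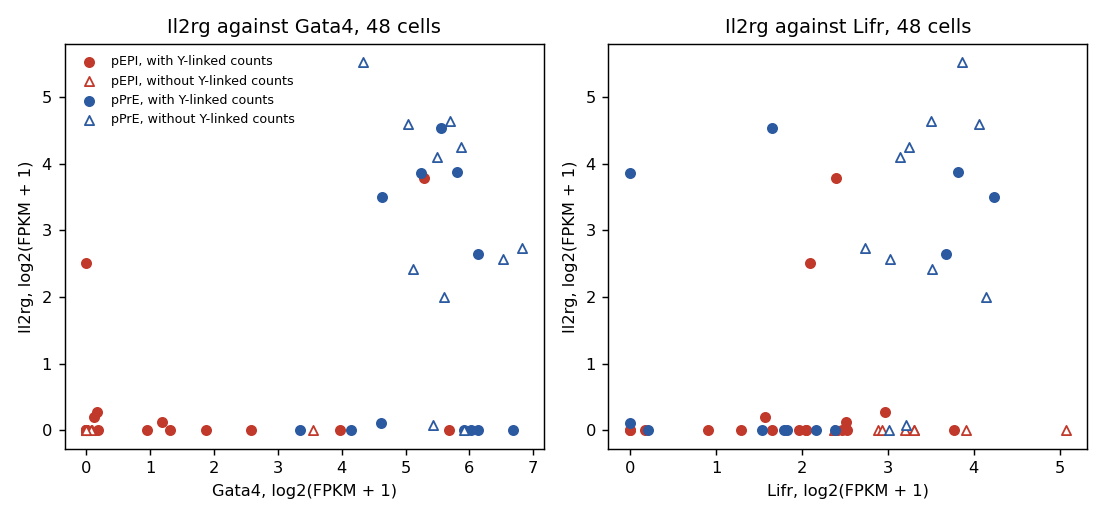
Il2rg against Gata4 (left) and against Lifr (right), log2(FPKM + 1) in each of the 48 cells; colours give the branch and symbols the presence of Y-linked counts. Of the cells with more than 3 counts of Il2rg, 14 are pPrE and 2 pEPI cells, and pPrE cells without Il2rg reach similar Gata4, while their mean Gata6 and Sox17 are lower.

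The partner chains of the common gamma chain had few counts or none. Il2ra, Il2rb, Il7r, Il9r and Il21r had 0 counts in all 48 cells, which allows a share of cells with a count of up to 6.25% for each. This limit covers counting error only, and a transcript present in a cell can go uncounted. Il4ra was counted in 1 cell of each branch and Il15ra in 1 pPrE cell. Il13ra1, which can join the IL-4 receptor, was counted in 10 cells of each branch. Jak3, the kinase that binds the gamma chain, had counts in 24 pEPI and 21 pPrE cells, at 6.62 ± 4.26 and 5.23 ± 4.69 FPKM. Counts of Il2rg and Jak3 together were found in 5 pEPI and 15 pPrE cells, out of 5 and 16 with Il2rg, as Jak3 was counted in most cells.

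Among the kinases of the set, Jak1 (ENSMUSG00000028530, chr4:101152367-101265282), which gp130 receptors use, was counted in 23 pEPI and 22 pPrE cells. It ran from 0 through a median of 5.14 to 21.6 FPKM in pEPI and from 0 through 3.61 to 13.9 FPKM in pPrE. The log2 ratio was -0.16 (-0.23 to -0.10), well inside the spread, and the 2 highest cells were pEPI cells. Raver2, on the opposite strand and overlapping Jak1, held 414 counts against 8241 of Jak1.

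Jak2 (ENSMUSG00000024789, chr19:29251828-29313080), the kinase of growth hormone and other receptors, was counted in 3 cells of each branch. In pEPI it was at 1.65 FPKM in A2, 1.23 in D6 and 0.469 in F8. In pPrE it was at 3.84 FPKM in F2, 2.53 in C6 and 0.0407 in F6. It was thus scarce in both branches, at 60 and 179 counts, and its log2 ratio of 1.06 became -0.20 without cell F2, which held 58.7% of the pPrE counts.

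Stat3 (ENSMUSG00000004040, chr11:100885098-100939540), the factor that LIF activates, was counted in every cell. In pEPI it ran from 6.69 through a median of 14.7 to 34.3 FPKM and in pPrE from 1.42 through 8.89 to 21.7 FPKM. No pEPI cell was below 6.69 FPKM, whereas the lowest pPrE cells were C5, D1 and D3, all without Y-linked counts and below 2 FPKM. The means of 15.95 ± 7.48 and 9.85 ± 5.29 FPKM gave a 1.62-fold lower level in pPrE, a log2 ratio of -0.70 (-0.73 to -0.66). A pPrE cell was higher in 25.6% of pairs. The difference was larger than the SD in pPrE and smaller than that in pEPI. It was uneven between the sets of cells: within those without Y-linked counts the ratio was -1.19 (15.1 against 6.62 FPKM), and within those with them -0.35 (16.4 against 12.8 FPKM). Stat5a overlaps Stat3 on the opposite strand and held 613 counts against 25381 of Stat3.

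Socs3 (ENSMUSG00000053113, chr11:117966079-117970047), whose promoter window carried the palindrome shown above, was abundant in every cell. It ran from 18.3 through a median of 79.9 to 214 FPKM in pEPI and from 28.4 through 78.0 to 187 FPKM in pPrE. The means of 82.7 ± 41.9 and 90.8 ± 42.7 FPKM gave a log2 ratio of 0.13 (0.11 to 0.16), so the level of this target was alike in range in both branches where that of Stat3 was not. The highest pEPI cell, B2, was among the highest for Stat3, at 29.6 FPKM, and the highest pPrE cell for Socs3, B8, was also the highest pPrE cell for Stat3.

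The cells with and without Y-linked counts differed more in several receptor genes than the branches did. This comparison was added after the data were seen, and embryo, the presence of a Y chromosome and the position of the wells cannot be told apart in it. Lifr, Il6ra and Il2rg were at least 2-fold higher in cells without Y-linked counts, where 7.56% of the 10768 genes were, and none of the 7 genes was at least 2-fold lower, where 6.88% were. For Il2rg, which lies on the X chromosome, the log2 ratio was 1.41, and it fell below 2-fold, to 0.95, without the highest cell, C5. The number of X chromosomes per cell was not tested.

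Lifr ran from 4.20 through a median of 8.48 to 32.6 FPKM in the 19 cells without Y-linked counts and from 0 through 2.91 to 17.9 FPKM in the 29 cells with them. Every cell without Y-linked counts was thus at 4.20 FPKM or more, and 19 of the 29 others were below that level. The means of 10.6 ± 6.33 and 4.02 ± 4.45 FPKM gave a log2 ratio of 1.40 (1.35 to 1.45), and 4.70% of all genes had a ratio as high or higher. The ratio was 1.75 within pEPI and 1.02 within pPrE.

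By run of wells, the mean of Lifr was 3.39 ± 4.53 FPKM in A1 to C2 (n = 18 cells), 11.03 ± 7.11 in C3 to D8 (n = 14), 5.04 ± 4.34 in E1 to F3 (n = 11) and 9.31 ± 3.67 in F4 to F8 (n = 5). Both runs without Y-linked counts were therefore above both runs with them, including the runs that share the letters C and F. Across alternatives, which left out each well letter, the highest cell or changed the scaling, the log2 ratio of Lifr lay between 1.08 and 1.64.

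Il6ra averaged 2.55 ± 2.35 FPKM without and 0.789 ± 1.04 FPKM with Y-linked counts, a log2 ratio of 1.69 (1.58 to 1.81). It was 1.82 within pEPI and 2.15 within pPrE. Il6st was at 5.77 ± 3.44 and 3.38 ± 3.03 FPKM, a log2 ratio of 0.77 (0.71 to 0.83), and the ratio was 0.35 within pEPI and 1.49 within pPrE. The means of Lifr, Il6st, Il6ra and Il2rg were thus all higher without Y-linked counts, with Il2rg in pEPI as the exception.

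Il2rg was counted in none of the 8 pEPI cells without Y-linked counts, which allows a share of cells with a count of up to 37.5%. It was above 3 counts in 9 of 11 pPrE cells without and 5 of 12 with Y-linked counts, at means of 13.1 ± 13.8 and 5.42 ± 7.66 FPKM. The difference between the branches was therefore present in both sets, with a log2 ratio of 2.37 within the cells with Y-linked counts. Of the 6 cells with Lif, 5 had no Y-linked counts, but among these F4 held 1 count and D4 4 counts, near the floor of 3 counts.

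Further down the pathway, the means of Stat3, Jak1 and Socs3 were not higher without Y-linked counts. Stat3 was at 10.2 ± 6.37 FPKM without and 14.9 ± 7.12 FPKM with Y-linked counts, a log2 ratio of -0.55 (-0.59 to -0.51). This came mainly from pPrE, where the ratio was -0.95, against -0.12 within pEPI. Jak1 and Socs3 had ratios of -0.10 and -0.25. For Stat3, Jak1 and Socs3, as for the receptor genes Il6st and Il2rg, the means differed by less than the SD of either set.

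**Figure D3:**
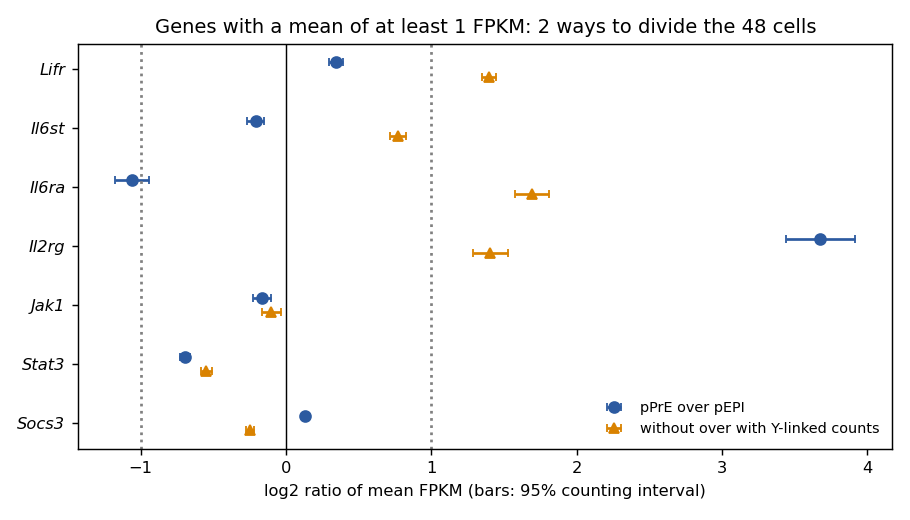
Log2 ratio of mean FPKM for the 7 genes with a mean of at least 1 FPKM, by branch (blue circles, pPrE over pEPI) and by Y-linked counts (orange triangles, without over with); bars are 95% counting intervals, dotted lines mark 2-fold. Lifr is at 0.34 by branch and 1.40 by Y-linked counts, whereas Il2rg is at 3.67 and 1.41.

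**Figure D4:**
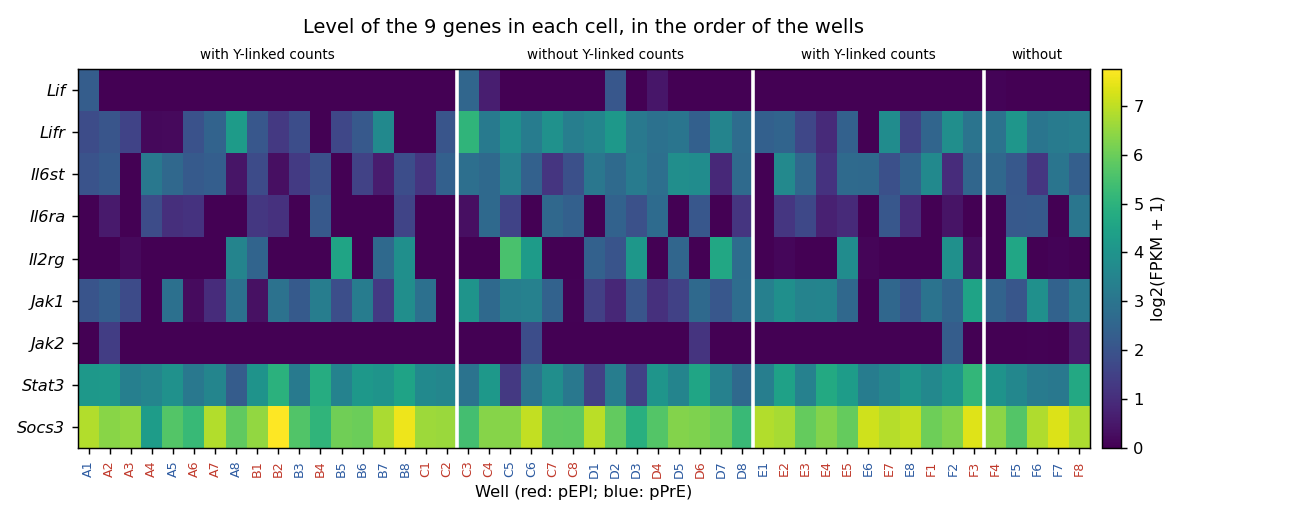
Log2(FPKM + 1) of the 9 genes in all 48 cells in the order of the wells; well names in red are pEPI and in blue pPrE, and white lines divide the runs with and without Y-linked counts. The Lifr row is brighter in wells C3 to D8 and F4 to F8, and Socs3 is bright throughout.

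From cell to cell most pairs of genes of the set had a low Spearman rho. A low rho does not show that genes vary on their own, since a transcript present in a cell can go uncounted. Over the 15 pairs of the 6 genes counted in at least 24 cells (excluding Il2rg, Lif and Jak2), the Spearman rho of log2(FPKM + 1) ran from -0.35 for Lifr and Stat3 to 0.25 for Jak1 and Stat3, with a median of 0.06 and 9 pairs above 0. Receptor chains Lifr and Il6st had a rho of 0.14, and Stat3 and its target Socs3 a rho of 0.23. Only 5 pairs were above 0 in both branches. The rho of Lifr and Stat3 was -0.05 where Y-linked counts were present and -0.28 where they were not. Of the pairs left out of the 15, Lifr and Il2rg had a rho of 0.36, above the highest of the 15. It was 0.50 within pPrE and -0.01 within pEPI.

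The genes most alike to Lifr, among 5826 genes with a mean of at least 5 FPKM and counts in at least 24 cells, were the predicted gene Gm3375 (rho 0.68), the Polycomb-associated Epop (0.64) and the de novo DNA methyltransferase Dnmt3b (0.62). The least alike were the nuclease gene Ankle1 (-0.71), the tubulin gene Tuba4a (-0.65) and Pigp (-0.63). The 3 alike genes were also higher in cells without Y-linked counts: Gm3375 averaged 158 FPKM there and 17.8 FPKM in the others, Dnmt3b 75.9 and 16.96 FPKM, and Epop 27.6 and 10.7 FPKM. Inside the cells with Y-linked counts their rho with Lifr was 0.27, 0.52 and 0.32. Inside those without them it was 0.48, 0.13 and 0.49. For these 3 genes rho was thus lower inside either set than over all cells. For the least alike genes, rho with and then without Y-linked counts was -0.51 and -0.76 for Ankle1, -0.29 and -0.33 for Tuba4a, and -0.21 and -0.14 for Pigp.

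For Stat3 the most alike genes were Frrs1 (rho 0.63), the glutaredoxin gene Glrx (0.61) and Mgarp (0.60), and the least alike included Rps18 (-0.58) and Gm16288 (-0.55). For Socs3 they were Slc35b2 (0.57), the stress kinase gene Eif2ak1 (0.50) and Ube2g1 (0.49), and at the other end Rps15-ps2 (-0.51), Rps20 (-0.49) and Rpl36a-ps2 (-0.48). Ribosomal protein genes and their pseudogenes share near-identical sequence, so their counts are uncertain. For Jak1 no gene went beyond 0.46 (Pdia5, with Tyro3 and Cdc42ep1 at 0.45) or below -0.52 (Gm11263, then Zfp622 at -0.49 and Eed at -0.46). Il2rg was counted in too few cells for this list. When added after its values were seen, it was most like the amino acid transporter gene Slc7a6 (0.63), Polr2h (0.61) and P4ha2 (0.59), and least like Gm12790 (-0.67), Tfap2c (-0.60) and Sod2 (-0.59). In the same order, rho was 0.37, 0.65, 0.29, -0.71, -0.48 and -0.49 within pPrE. Within pEPI it was 0.55, 0.25, 0.50, -0.16, 0.04 and -0.22. Part of the likeness over all cells thus went with the branches.

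Beyond the 9 genes, 97 ligands, receptors, kinases, STATs, adaptors, inhibitors and STAT3 targets were examined. Of these 74 had counts and 39 reached a mean of 1 FPKM, of which 5 were at least 2-fold higher and 3 at least 2-fold lower in pPrE, with a median log2 ratio of 0.09. The shares were 12.8% and 7.69%, beside the 6.12% and 8.86% of all genes given above. The ratio had opposite signs in the cells with and without Y-linked counts for 10 of the 38 genes with a ratio in both, and for 0 of the 7 such genes past 2-fold.

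Of 20 ligands 11 had counts and 1 reached 1 FPKM. This was Ctf2, a cardiotrophin counted in 6 pEPI and 10 pPrE cells, at 1.42 ± 3.90 FPKM in pEPI and 2.10 ± 7.80 FPKM in pPrE, where 1 cell held 85.2% of the counts. Il6, next in level, was counted in 3 pEPI and 4 pPrE cells. Ligand transcripts were thus found in a minority of cells, as for Lif.

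Of 33 receptors 20 had counts and 7 reached 1 FPKM. Ghr, the growth hormone receptor, had counts in 2 pEPI and 11 pPrE cells, at 0.173 ± 0.598 and 2.02 ± 3.13 FPKM, a log2 ratio of 3.54 (3.31 to 3.79). Together with Il2rg it was counted in 1 pEPI and 9 pPrE cells, while 7 pPrE cells had Il2rg only and 2 had Ghr only. Ifngr1, an interferon gamma receptor chain, was at 2.36 ± 5.12 and 7.12 ± 8.08 FPKM (log2 ratio 1.60), and Ifnar1, a type I interferon receptor chain, at 3.24 ± 3.76 and 4.74 ± 3.94 FPKM (0.55). In the other direction Csf3r, the receptor of G-CSF, was at 5.76 ± 10.03 FPKM in pEPI and 1.11 ± 3.95 FPKM in pPrE (log2 ratio -2.37), with 69.3% of the pPrE counts in 1 cell. Osmr, the chain that binds oncostatin M with gp130, had 0 counts in all 48 cells.

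Of the other kinases, Jak3 had a log2 ratio of -0.34 and Tyk2, at 2.34 ± 1.78 and 2.60 ± 2.88 FPKM, one of 0.15. Neither reached 2-fold. Jak1 and Jak3 thus had similar levels in these cells, and Jak2 was the least expressed of the 4 kinases. Among other STATs only Stat6, which IL-4 activates, reached 1 FPKM, at 6.71 ± 8.36 and 4.62 ± 5.92 FPKM. Stat2 was at 0.685 ± 1.20 and 0.394 ± 0.754 FPKM. Of the 6 adaptors, Shc1 and Grb2, which link receptors to the MAPK route, were highest, at log2 ratios of 0.29 and -0.34.

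Of 15 inhibitors 11 reached 1 FPKM, 2 of them at least 2-fold higher and 1 at least 2-fold lower in pPrE. These shares of 18.2% and 9.09%, beside 6.12% and 8.86% of all genes, rest on few genes. Socs1 was at 7.15 ± 8.22 FPKM in pEPI and 15.3 ± 12.6 FPKM in pPrE (log2 ratio 1.10), and Pias3, an inhibitor of STAT3, at 1.18 ± 1.71 and 2.81 ± 3.55 FPKM (1.25). Ptpn6, the phosphatase SHP-1, was at 16.7 ± 17.2 and 5.23 ± 7.54 FPKM (-1.68). The most abundant inhibitors were Pias2, with a log2 ratio of -0.88, and Ptpn2, with one of 0.31. Cish, named after its values were seen, was counted in 3 pEPI and 11 pPrE cells, at 0.236 ± 0.666 and 1.47 ± 2.62 FPKM. Both Cish and Il2rg were counted in 2 pEPI and 7 pPrE cells. In pPrE a further 9 cells had Il2rg only and 4 had Cish only, and whether the 2 go together was not tested.

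Of 15 STAT3 targets 13 reached 1 FPKM, with a median log2 ratio of -0.46. Gbx2, a homeobox gene, was counted in 5 pEPI and 15 pPrE cells and was at 1.17 ± 2.89 and 3.88 ± 4.76 FPKM (log2 ratio 1.73). Myc was at 43.8 ± 53.6 and 17.02 ± 20.3 FPKM (-1.37). The most abundant were Tfcp2l1, a naive pluripotency factor, with a log2 ratio of -0.46, and Fos, with one of -0.71. Of the 13 targets, 1 was at least 2-fold higher in pPrE and 1 at least 2-fold lower, 7.69% each. Of all genes 6.12% and 8.86% were, so the targets as a set were near these shares. Several are also used by other pathways.

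**Figure D5:**
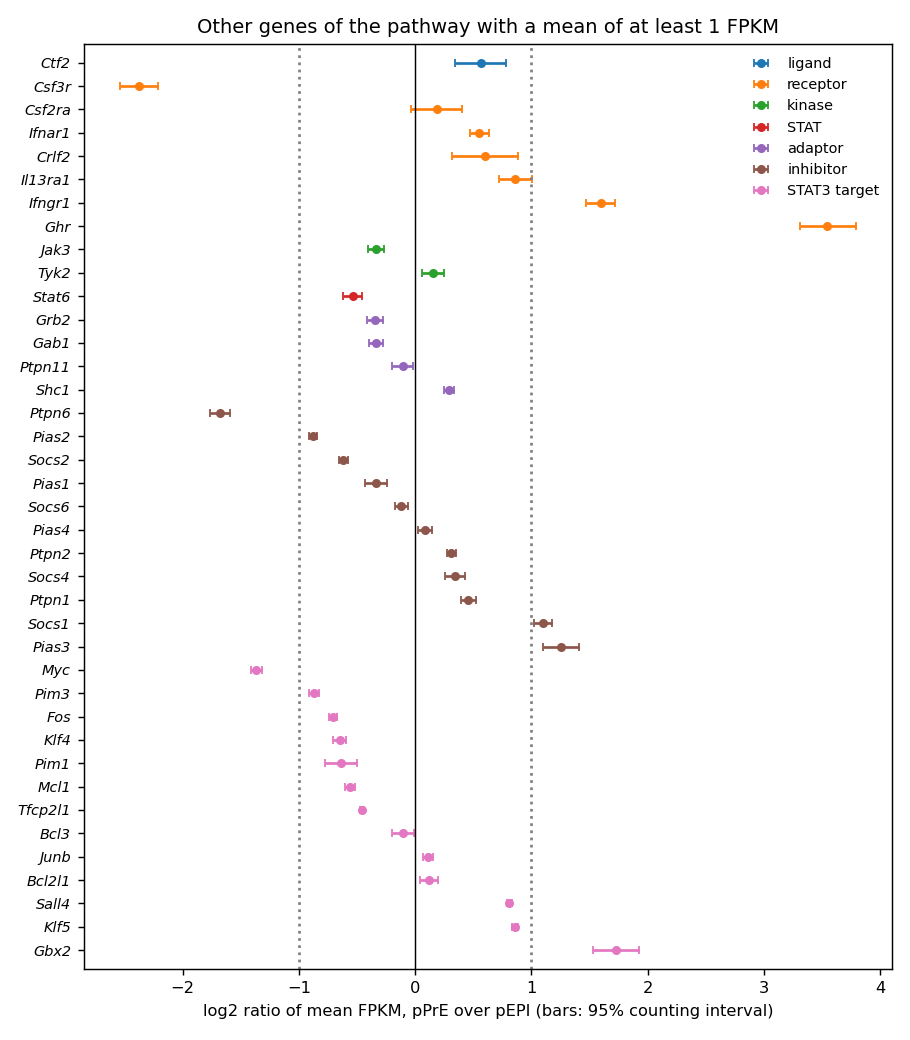
Log2 ratio of mean FPKM, pPrE over pEPI, for the 39 other pathway genes with a mean of at least 1 FPKM, grouped by role; bars are 95% counting intervals and dotted lines mark 2-fold. Ghr at 3.54 and Csf3r at -2.37 are farthest from 0, and most genes lie between the dotted lines.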

How the data were processed

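RNA of 48 single cells was measured by Smart-seq2. The deposited table holds raw read counts per Ensembl gene (release 87, mm10); the submitters' processing notes name STAR and HTSeq, with no versions. By the study's methods, cells with fewer than 500000 mapped reads were left out by the authors. The table has no column of another sample. How the counting treated strand is not given in the sources used here.

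FPKM was the count divided by the size factor (median of ratios), the mean total count per cell (scaled as in FPKM) and the union exon length in kb (GENCODE M21, GRCm38); 85 genes with counts had no length. Logarithms used log2(FPKM + 1). Ratios compare mean FPKM in genes with a mean of at least 1 FPKM over the 48 cells, and the limit was 2-fold. Counting intervals (95%) take their width from the exact interval of the ratio of summed counts. The smallest total was 1718970 counts. A count of 0 was read with a floor of 3 counts, and a share of 0 cells with a floor of 3 cells. Y-linked counts meant a sum of at least 100.

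Branches were read by eye from the study's tree. The study tested cells as replicates; here the labels name no embryo, so no test was run. The members and gene lists were chosen with earlier results of these data known. Named were the 9 genes, other pathway genes past 2-fold, the 2 most abundant of each role, the 3 most and least alike genes of members with at least 5 FPKM counted in at least 24 cells, and the markers; 1 gene that met this rule is not reported here. The scaling, ratio and likeness steps were tested on simulated data. Alternatives covered scaling, averaging, thinning, grouping, filters and left-out cells. Scripts ran on scipy 1.17.1, pandas 2.3.3 and numpy 2.4.6 under Python 3.11.15, and figures on matplotlib 3.10.9.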

Additional observations from a re-analysis of the deposited data

How the results depend on the processing

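All cells are 1 sample, so the counting intervals cover counting error only, and no interval covers differences between embryos. The count of genes of the set at least 2-fold lower in pPrE was 1 (Il6ra). It was 0 with means of log2(FPKM + 1), with summed CPM, without the cells of letter B, C or E, with a minimum of 5 FPKM, and in cells with Y-linked counts only, where Il6ra fell below the minimum of 1 FPKM. It was 2 (Il6ra and Stat3) in cells without Y-linked counts only. Apart from the Ward clusters described below, the ratio of Il6ra kept its sign in each alternative that gave a ratio. It ran from -1.60 (only cells with Y-linked counts) to -0.55 (means of log2(FPKM + 1)). The count at least 2-fold higher was 1 (Il2rg). It was 0 with the sign of the Nanog to Gata6 ratio and with a minimum of 5 FPKM, which Il2rg does not reach, and 2 with no filter, which lets Jak2 in. Ward clusters on variable genes matched the presence of Y-linked counts in 48 of 48 cells and the branches in 20 of 48. The cluster that took the place of pPrE was the 29 cells with Y-linked counts. Ratios between the clusters therefore compare cells with over cells without Y-linked counts, and are not ratios of the branches. With the clusters the counts were 0 higher and 3 lower (Il2rg, Il6ra and Lifr), and 4 other pathway genes were past 2-fold. The log2 ratios were -1.41 for Il2rg, -1.69 for Il6ra, -0.25 for Jak2, -1.40 for Lifr and 0.55 for Stat3. The branch ratio of Jak2 reversed to -0.040 without letter F and -0.20 without its highest pPrE cell. Other pathway genes past 2-fold numbered 8, and 3 with a minimum of 5 FPKM or 31 with no filter, by the number of genes tested. Elsewhere the cause was not tested. Cells with both Lifr and Il6st numbered 35 to 41. The comparison by Y-linked counts, its alternatives and the limit of 3 counts for Il2rg were chosen after seeing the data. No paired analysis was possible because the cells form 1 group with no shared replicate numbers.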
